A study of Mus musculus with 24 samples.

Results

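Organ of Corti (OC) explants exposed to pioglitazone together with gentamicin (PIO + GM) were compared with explants exposed to gentamicin alone (GM) after 6 h, over all genes. The comparison used 3 libraries on each side, 6 of the 24 libraries of the series, chosen by their labels only. OCs came from C57BL/6N pups of both sexes at postnatal day 5, were cultured for 24 h and were then given 50 μM gentamicin, with or without 10 μM pioglitazone, for 6 h. Treatments were run in triplicate, with 6 OCs going into the RNA of a condition, so that a library may mix tissue of several pups and is not known to be a single animal. All explants, untreated ones (CTRL) included, had been kept in medium with fetal calf serum and penicillin. Total RNA was sequenced and reads were counted per gene. The question addressed was what pioglitazone changes in a gentamicin-exposed OC early in the exposure.

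Pioglitazone is an agonist of PPAR-γ, a nuclear receptor that pairs with RXR on DNA and switches on genes of fatty acid uptake, storage and oxidation. Ligand-bound PPAR-γ can also hold back inflammatory transcription driven by other factors. Gentamicin is an aminoglycoside antibiotic that enters hair cells (HCs) and kills them. The OC is a mixture of HCs, supporting cells, nerve fibers, Schwann cells, fibroblasts, vessels and macrophages, and in such bulk samples fewer cells of a type and less RNA per cell cannot be told apart.

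The 6 libraries were not alike in depth or base composition. Totals were 11668171, 11656327 and 15013413 counts in GM replicates 1 to 3. In PIO + GM they were 11656650, 12795988 and 7211357 counts, so that replicate 3 of PIO + GM was the shallowest library of the series, where 3 counts correspond to 0.416 CPM (counts scaled to a common library size), a floor that covers counting error only. Each library was set against the mean of the other groups of 6 h, gene by gene, and the deviations were ranked against the GC content of each gene's transcript. The Spearman correlation across genes was 0.44, 0.35 and 0.49 in the GM libraries. It was 0.07 in PIO + GM replicate 1, but -0.60 and -0.66 in replicates 2 and 3. Genes rich in A and T were thus over-represented in PIO + GM replicates 2 and 3 relative to the other libraries of the comparison, and PIO + GM replicate 1 stood apart from these. The GM and PIO + GM correlations have unlike references, since that of GM held PIO + GM replicates 2 and 3. Without a reference, the mean GC content of the counts was 49.03, 48.98 and 49.45% in GM. It was 48.99, 47.8 and 47.45% in PIO + GM, with replicate 1 at the level of GM replicates 1 and 2. The part of depth in the GC trend was not tested. Counts on olfactory and vomeronasal receptor genes, which belong to the nose, made up 125, 129 and 56.3 CPM in GM and 144, 99.4 and 276 CPM in PIO + GM, with the highest value in the shallow replicate 3. The libraries also differed in the sex of their pups, since Y-linked genes were at 9.94, 295 and 347 CPM in GM and at 121, 322 and 335 CPM in PIO + GM. Markers of HCs were detected in every library, including Myo7a, the motor of stereocilia, and Pou4f3, the transcription factor that maintains HCs.

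**Figure D1:**
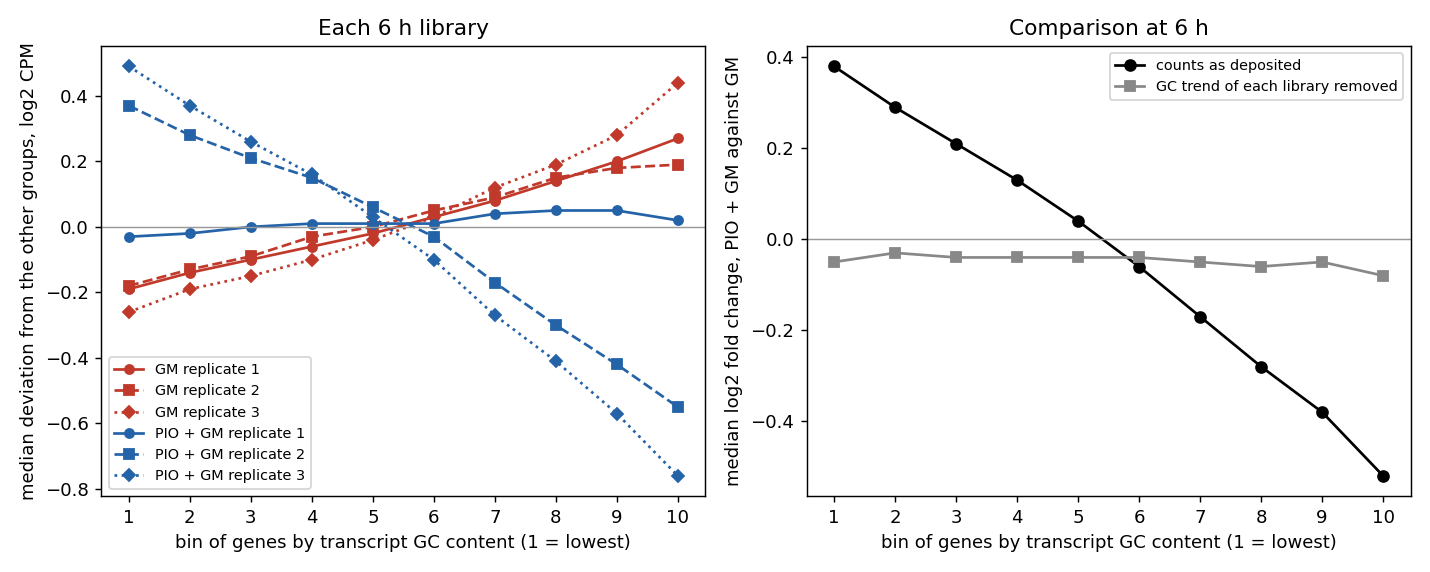
Left, median deviation of each 6 h library from the mean of the other groups (log2 CPM) in 10 equal bins of genes by transcript GC content, for GM (red) and PIO + GM (blue). Right, median log2 fold change of PIO + GM against GM in the same bins, from the counts as deposited (black) and after removing the GC trend of each library (grey). PIO + GM replicates 2 and 3 fall from 0.37 and 0.49 in bin 1 to -0.55 and -0.76 in bin 10, while replicate 1 stays between -0.03 and 0.05. The reference of GM includes PIO + GM replicates 2 and 3, while that of PIO + GM does not.

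Of 16317 genes tested, 216 (1.32%) passed an adjusted p of 0.05 in edgeR's quasi-likelihood test, 98 (0.601%) higher and 118 (0.723%) lower with PIO + GM than with GM. The median log2 fold change was 0.65 among the higher genes and -0.94 among the lower ones. Of the higher genes, 16 had changed more than 2-fold, and of the lower genes, 51. At an unadjusted p under 0.05, 4087 genes (25%) differed, 2136 (13.1%) higher and 1951 (12%) lower. In 3755 genes (23%) the 3 PIO + GM libraries did not overlap the 3 GM libraries, and this held for 214 of the 216 called genes. The size of the difference was uneven among the PIO + GM libraries. Against the mean of GM, the higher genes had a median difference of 0.37 log2 CPM in PIO + GM replicate 1, 0.70 in replicate 2 and 0.83 in replicate 3, and the lower genes -0.72, -1.04 and -1.14. With the GC trend of each library removed, 91 genes (0.558%) were called, 23 (0.141%) higher and 68 (0.417%) lower, with 2459 (15.1%) at an unadjusted p under 0.05, and 67 of the 216 genes were called in both fits with the same sign.

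The number of called genes rested on which libraries were fitted. Without PIO + GM replicate 3, the shallow library, 6 genes were called (0.0364%), 1 higher (0.00606%) and 5 lower (0.0303%), with 2398 (14.5%) at an unadjusted p under 0.05. With the GC trend removed as well, 25 were called (0.152%), 5 higher (0.0303%) and 20 lower (0.121%), with 2114 (12.8%) at an unadjusted p under 0.05. Without PIO + GM replicate 2, 4 genes were called. Without PIO + GM replicate 1, 4053 genes were called. Without GM replicate 1, 2 or 3, 12, 33 and 35 genes were called. Libraries outside the comparison, which share the estimate of the spread, also moved the count: without PIO replicate 1, 2 or 3 at 6 h, 136, 1642 and 520 genes were called, and leaving out a single library of 24 h gave 164 genes for CTRL replicate 2 and 104 to 137 for each of the other 11. With the 12 libraries of 6 h alone or with the 6 libraries of the comparison alone, edgeR called 0 genes at an adjusted p of 0.05, although 2281 and 2659 genes had an unadjusted p under 0.05. DESeq2, on the 24 libraries, called 1216. The direction of all 216 genes was the same in each of the 6 fits that left out a library of the comparison, but only Sumo3 and Tmem198b were called in each of them. In the 214 called genes without overlap between the groups, leaving out 1 library could not turn the sign. The shared direction is thus no separate evidence. Of the 216 genes, those still called without PIO + GM replicate 3 were Cpt1a, Sumo3, Tmem198b, Ccdc9b and Olfml3, so the calls of all others named below, in the comparison of PIO + GM with GM at 6 h, were lost in that fit.

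**Figure D2:**
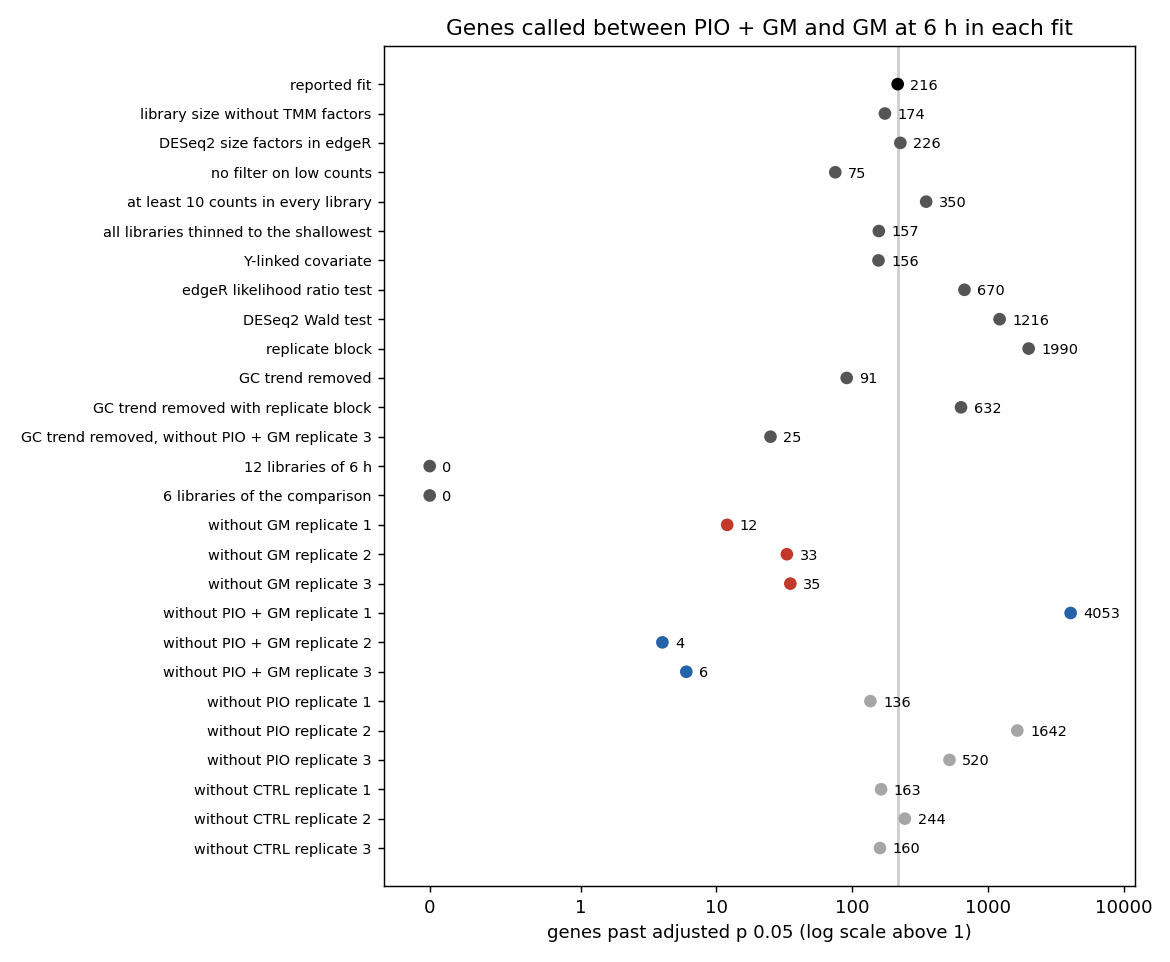
Number of genes past an adjusted p of 0.05 between PIO + GM and GM at 6 h (horizontal axis, log scale above 1) in each fit, with fits that leave out a GM library in red, a PIO + GM library in blue and a PIO or CTRL library of 6 h in light grey. The reported fit, at 216, is marked by the vertical line, and the fits range from 0 to 4053.

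Genes of fatty acid use moved in opposite directions. Cpt1a, which encodes the enzyme that admits long-chain fatty acids to mitochondria, was at 6.15, 6.41 and 6.20 log2 CPM with GM and at 7.17, 6.86 and 7.02 with PIO + GM. The libraries did not overlap, and Cpt1a rose by 0.77 ± 0.12 (log2 fold change ± SE, n = 3 each, adjusted p = 0.00721, edgeR's quasi-likelihood test). It kept this value with the GC trend removed (0.78, adjusted p = 0.0016) and without PIO + GM replicate 3 (0.77, adjusted p = 0.0431). Pdk4, a kinase that shuts off pyruvate dehydrogenase and so spares glucose, was at 3.11, 3.63 and 3.98 log2 CPM with GM and at 5.15, 5.47 and 4.79 with PIO + GM. It rose by 1.56 ± 0.32 (adjusted p = 0.033, quasi-likelihood test), and the call was lost with the GC trend removed (1.30, adjusted p = 0.0618) and without PIO + GM replicate 3 (1.71, adjusted p = 0.0783). Acadl, the long-chain acyl-CoA dehydrogenase of mitochondrial β-oxidation, lay between 5.49 and 5.58 log2 CPM with GM and between 5.98 and 6.12 with PIO + GM, and rose by 0.51 (adjusted p = 0.042), or by 0.25 without the GC trend (adjusted p = 0.406).

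Angptl4, a secreted inhibitor of lipoprotein lipase and a well-known PPAR target, did not pass the test. Its level was 2.49, 3.78 and 3.32 log2 CPM with GM and 5.16, 4.33 and 4.39 with PIO + GM. These values did not overlap, with a log2 fold change of 1.41 ± 0.41 (adjusted p = 0.0732), and the spread among the GM libraries was wide. Plin4, which coats lipid droplets, was at 3.63, 3.75 and 4.26 log2 CPM with GM and at 2.54, 1.22 and 0.94 with PIO + GM, and fell by 2.19 on the log2 scale (SE 0.44, adjusted p = 0.0294). Slc27a1, a fatty acid transporter, was at 6.93, 6.90 and 7.00 with GM and at 6.12, 5.55 and 5.00 with PIO + GM, and fell by 1.32 (SE 0.25, adjusted p = 0.0199). Both falls were called with the GC trend removed, at -1.97 and -0.93. Without PIO + GM replicate 3 they were -1.93 (adjusted p = 0.128) and -1.09 (adjusted p = 0.112).

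Of 32 tested genes of the list of PPAR targets, 3 rose (Cpt1a, Pdk4 and Acadl) and 2 fell (Slc27a1 and Plin4), beside 0.601% and 0.723% of all tested genes, with a median log2 fold change of -0.12 beside -0.02 over all tested genes. The summed level of the list was 1750 to 1860 CPM with GM and 1610 to 1970 CPM with PIO + GM. Among members that did not pass were Plin2, another droplet coat protein (-0.34, adjusted p = 0.332), and Cd36, a fatty acid receptor (-0.19, adjusted p = 0.789, and -0.64 with the GC trend removed, adjusted p = 0.514). Fabp4, an adipocyte fatty acid carrier, was too low to be tested.

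**Figure D3:**
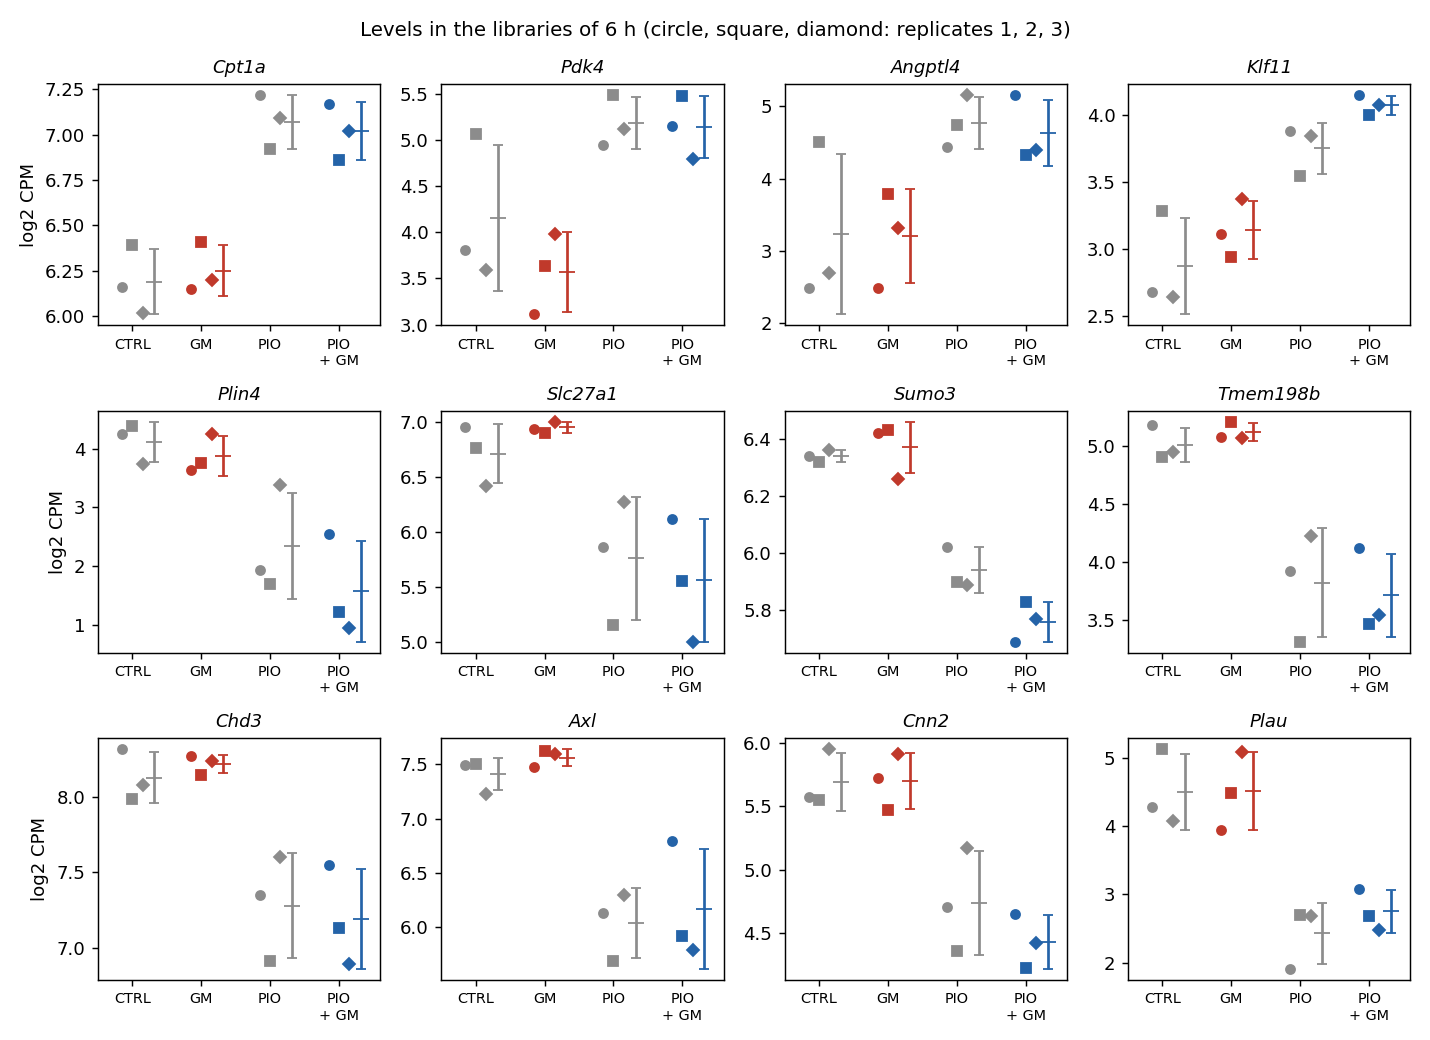
Levels (log2 CPM) of 12 genes in the 12 libraries of 6 h, with circles, squares and diamonds for replicates 1, 2 and 3 and bars for the mean ± SD of 3 libraries. PIO + GM (blue) lies above GM (red) in Cpt1a, Pdk4, Angptl4 and Klf11 and below it in the others, without overlap. PIO and CTRL (both grey) overlap in Pdk4 and Angptl4.

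Sumo3, which encodes a small ubiquitin-like protein attached to other proteins, was one of the pair of genes called in each fit without 1 library of the comparison. Its level was 6.42, 6.43 and 6.26 log2 CPM with GM and 5.69, 5.83 and 5.77 with PIO + GM. It fell by 0.61 (SE 0.09, adjusted p = 0.00567, quasi-likelihood test), by 0.68 with the GC trend removed and by 0.61 without PIO + GM replicate 3, and all 3 fits called it. It shares 346 of 3660 exonic bases with Gm49325 on the same strand. Tmem198b, which encodes a transmembrane protein, went from 5.08, 5.21 and 5.07 log2 CPM to 4.12, 3.46 and 3.54 and fell by 1.39 (SE 0.19, adjusted p = 0.00567). Tmem198b shares up to 789 of its 3363 exonic bases with genes on the opposite strand (Dnajc14, Mmp19). Since the use of the strand in counting is not stated, reads in the shared bases cannot be told apart from theirs.

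The 6 genes called without PIO + GM replicate 3 were Cpt1a, Sumo3, Tmem198b, Ccdc9b, Olfml3 and Sox5, and these are named because of that result. Olfml3, a secreted glycoprotein, was at 6.13, 6.43 and 6.24 log2 CPM with GM and at 5.29, 4.98 and 4.30 with PIO + GM, and fell by 1.36 (SE 0.21, adjusted p = 0.00721). Ccdc9b was at 4.65, 4.69 and 4.81 with GM and at 3.73, 3.22 and 3.57 with PIO + GM and fell by 1.21 (SE 0.17, adjusted p = 0.00567). Sox5, a transcription factor of cartilage and glia, was not among the 216, but was called once replicate 3 was left out or the GC trend removed. It was at 5.52, 5.52 and 5.46 log2 CPM with GM, and at 4.55 and 4.71 in PIO + GM replicates 1 and 2 against 5.36 in replicate 3, with a log2 fold change of -0.59 (adjusted p = 0.0631) in all 3 and -0.87 (adjusted p = 0.0302) without the third. It shares 1330 exonic bases with an antisense gene.

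Of 20 tested genes of a list of YAP and SRF targets, which answer to cell tension and the actin cytoskeleton, 4 fell with PIO + GM (Axl, Cnn2, Flna and Tpm2) and 0 rose, beside 0.723% and 0.601% of all tested genes. Cnn2, a calponin that binds actin, was at 5.72, 5.47 and 5.91 log2 CPM with GM and at 4.65, 4.23 and 4.42 with PIO + GM, and fell by 1.28 (SE 0.20, adjusted p = 0.00721). Axl, a receptor tyrosine kinase that clears dying cells and dampens innate immunity, was at 7.47, 7.62 and 7.59 with GM and at 6.79, 5.92 and 5.79 with PIO + GM. It fell by 1.32 (SE 0.21, adjusted p = 0.00721). Tpm2, a tropomyosin, was at 4.00, 4.01 and 4.54 with GM and at 3.37, 3.00 and 2.90 with PIO + GM and fell by 1.11 (adjusted p = 0.0291). Flna, the actin crosslinker filamin A, fell by 0.65 (adjusted p = 0.0465). The median of the list was -0.44. All 4 were called with the GC trend removed, where the median was -0.27, and 0 without PIO + GM replicate 3, where the median was -0.26, with -1.27 for Cnn2 (adjusted p = 0.0542) and -1.14 for Axl (adjusted p = 0.0644). Members widely used as YAP targets, named after their values were seen, did not pass: Ccn2 had a log2 fold change of 0.17 (adjusted p = 0.778) and Ccn1 0.10 (adjusted p = 0.858). The summed level of the list was 2800 to 3070 CPM with GM and 1740 to 2340 CPM with PIO + GM, without overlap. This sum is not separate from the calls, since the called Flna was the highest member. Flna was at 10.22, 10.22 and 10.30 log2 CPM with GM and at 9.93, 9.45 and 9.36 with PIO + GM.

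Plau, the urokinase that activates plasminogen, was at 3.95, 4.48 and 5.09 log2 CPM with GM and at 3.08, 2.68 and 2.48 with PIO + GM. It fell by 1.83 (SE 0.31, adjusted p = 0.00977), and by 1.96 with the GC trend removed. Pdgfra, the PDGF receptor of fibroblasts, was at 8.71, 8.74 and 8.84 with GM and at 8.05, 7.93 and 7.86 with PIO + GM and fell by 0.82 (SE 0.14, adjusted p = 0.00833). Cspg4, a proteoglycan of pericytes and glial precursors, was at 5.31, 5.84 and 5.71 with GM and at 4.65, 3.42 and 2.87 with PIO + GM and fell by 1.78 (SE 0.38, adjusted p = 0.0332). Gap43, a protein of growing axons, was at 4.90, 5.00 and 4.32 with GM and at 3.91, 3.57 and 3.49 with PIO + GM and fell by 1.11 (SE 0.23, adjusted p = 0.033). Each of these 4 was called with the GC trend removed, and none of them without PIO + GM replicate 3, where Plau had -1.71, Pdgfra -0.77, Cspg4 -1.48 and Gap43 -1.03 at an adjusted p between 0.0783 and 0.152.

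The steepest falls among called genes with a mean of at least 50 counts and no overlap between the groups were in Mrgprf, an orphan receptor of the Mas-related family (-2.48), Plin4, Igfbp6, a binding protein of insulin-like growth factors (-2.15), Cpne7, a calcium-dependent phospholipid-binding protein (-2.05), Plau and Cspg4. Mrgprf was at 2.73, 2.26 and 3.23 log2 CPM with GM and at 0.95, 0.16 and -0.05 with PIO + GM (SE 0.52, adjusted p = 0.033). All 6 were called with the GC trend removed. In all 6 the highest of the PIO + GM libraries was replicate 1, and the lowest was replicate 3 except in Cpne7, where it was replicate 2. The steepest rises among such called genes were in Scn4a, a voltage-gated sodium channel of muscle (1.89), Elovl2, an elongase of polyunsaturated fatty acids (1.75), Pdk4, Gbp8 (1.02) and Gbp6 (0.98), both interferon-inducible GTPases, and Klf11, a Krüppel-like transcription factor (0.93). Elovl2 was at 1.23, 1.82 and 1.30 log2 CPM with GM and at 2.98, 3.60 and 2.79 with PIO + GM (SE 0.38, adjusted p = 0.0335). Klf11 was at 3.11, 2.94 and 3.37 with GM and at 4.15, 4.00 and 4.07 with PIO + GM (SE 0.18, adjusted p = 0.0259). Of these 6, Scn4a was called with the GC trend removed (2.09, adjusted p = 0.0396) and the others were not, at adjusted p between 0.0513 and 0.165. Gbp6 and Gbp8 belong to a cluster of near-identical genes, so reads may be split among them. Gbp6 also shares 1726 of 5954 exonic bases with Gm43302 on the same strand.

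Chd3, Ctr9, Phtf2, Fancm and Caprin2 were called both with and without the GC trend. Chd3, a remodeler of the NuRD complex, was at 8.27, 8.15 and 8.24 log2 CPM with GM and at 7.55, 7.13 and 6.89 with PIO + GM, and fell by 1.01 (SE 0.16, adjusted p = 0.00721), or by 0.73 with the GC trend removed. Ctr9, a subunit of the PAF1 complex that travels with RNA polymerase II, was at 6.61, 6.60 and 6.55 with GM and at 6.92, 7.18 and 7.25 with PIO + GM, and rose by 0.54 ± 0.09 (adjusted p = 0.0116). Phtf2 rose by 0.88, Fancm, a DNA translocase of the Fanconi anemia pathway, by 0.77, and Caprin2, an RNA-binding protein, by 0.90. In each of these last 3 the smallest rise was in PIO + GM replicate 1. With the GC trend removed their log2 fold changes were 0.54, 0.49 and 0.67. Kcnj1, an inwardly rectifying potassium channel, had 0, 2 and 1 counts with GM and 15, 17 and 10 counts with PIO + GM, a ratio of CPM of 17 with a 95% exact counting interval of 5.42 to 85.5. It was called in the counts as deposited (adjusted p = 0.0419) and not with the GC trend removed (adjusted p = 0.0658), and is given as a description, since a gene this low is kept for testing by its counts in the groups where it is higher.

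The study's own list of Toll-like receptor, STAT and interferon genes, chosen on these libraries and so no independent evidence of a direction, had 0 of 18 members called by edgeR, with 1 higher and 3 lower at an unadjusted p under 0.05, beside 13.1% and 12% of all tested genes, and a median log2 fold change of -0.09, which turned to 0.18 without PIO + GM replicate 3. Its member with the lowest p was Pias1, a SUMO ligase that inhibits activated STAT proteins. Pias1 was at 5.87, 5.81 and 5.88 log2 CPM with GM and at 5.85, 6.39 and 6.39 with PIO + GM, a log2 fold change of 0.38 ± 0.12 (adjusted p = 0.0822). The groups overlapped, since PIO + GM replicate 1 was at the level of GM. The Pias1 transcript has a GC content of 42.18%, and its log2 fold change was 0.02 (adjusted p = 0.966) with the GC trend removed. Il16, a T cell chemoattractant, had a log2 fold change of -0.80 (adjusted p = 0.141) and Cxcl16, a membrane-bound chemokine, -0.62 (adjusted p = 0.166).

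Isg15, an interferon-induced ubiquitin-like protein, was at 3.27, 3.86 and 3.68 log2 CPM with GM and at 4.45, 3.23 and 2.54 with PIO + GM. Irf7, a regulator of type I interferon genes, was at 3.89, 4.15 and 4.78 with GM and at 5.09, 3.05 and 2.64 with PIO + GM. In both genes PIO + GM replicate 1 was above every GM library and replicate 3 below every GM library, so that the groups overlapped (adjusted p = 0.989 and 0.775), and the sign depended on the libraries and settings. Tlr4, the receptor of lipopolysaccharide, had a log2 fold change of -0.19 (adjusted p = 0.635), and of -0.64 with the GC trend removed (adjusted p = 0.165). In the list of interferon effectors, 1 of 39 tested members rose, Gbp6, and 0 fell, beside 0.601% and 0.723% of all tested genes, with a median of 0.17, of 0.08 with the GC trend removed and of 0.44 without PIO + GM replicate 3.

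Markers of most cell types were at a median below that of all genes. Of 12 marker lists, 11 had a median log2 fold change below 0, and 10 with the GC trend removed. In the 16 tested genes of endothelium the median was -0.49, in the 19 of Schwann cells and glia -0.47, in the 14 of pericytes and smooth muscle -0.47 and in the 24 of macrophages -0.38. With the GC trend removed these medians were -0.33, -0.39, -0.30 and -0.25. Without PIO + GM replicate 3 they were -0.34, -0.10, -0.37 and -0.25, and the medians of spiral ganglion neurons and stria vascularis turned, from -0.15 to 0.09 and from -0.18 to 0.01. The called members were Gap43 among 24 markers of spiral ganglion neurons, Pdgfra among 20 of fibroblasts and Cspg4 among 14 of pericytes and smooth muscle, all lower, beside 0.723% of all tested genes. Pdgfrb, a receptor of pericytes, had a log2 fold change of -1.26 (adjusted p = 0.0631), and Erbb3, the neuregulin receptor of Schwann cells, -0.89 (adjusted p = 0.0574). The macrophage markers without overlap between the groups, Itgam, an integrin of myeloid cells (1.20, adjusted p = 0.127), and Lyve1, a hyaluronan receptor (1.56, adjusted p = 0.151), were both higher, against the median of their list. These 2 of 24 (8.33%) stand beside 11.6% of all tested genes that were higher without overlap. Lyve1, at -1.01 to 0.88 log2 CPM, was near the floor, and Itgam shares 3450 of 5024 exonic bases with Gm49368 on the same strand. Macrophage markers summed to 113 to 237 CPM with GM and 120 to 167 CPM with PIO + GM, and markers of pericytes and smooth muscle to 648 to 895 and 474 to 629 CPM, without overlap. The summed Schwann cell level was 1570 to 3670 CPM with GM and 714 to 3380 CPM with PIO + GM. The part that cell composition had in the calls was not tested.

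The 40 HC markers had a median of -0.18 and 0 called members, with 6 lower and 0 higher at an unadjusted p under 0.05, beside 12% and 13.1% of all tested genes. The 4 lowest among them were the transcription factors Lhx3, Barhl1, Pou4f3 and Gfi1, while Atoh1, the factor that starts HC formation, overlapped between the groups (-0.53, adjusted p = 0.644). Pou4f3 was at 3.73, 3.22 and 2.97 log2 CPM with GM and at 1.93, 2.31 and 2.03 with PIO + GM, a log2 fold change of -1.27 ± 0.39 (adjusted p = 0.0817). Barhl1 had -1.42 ± 0.37 (adjusted p = 0.059), Gfi1 -1.21 ± 0.33 (adjusted p = 0.0631) and Lhx3 -1.81 ± 0.53 (adjusted p = 0.0732). In these 4 the libraries did not overlap, and in 8 of the 40 HC markers PIO + GM lay wholly below GM, beside 11.4% of all genes. Other genes of HCs, named after their values were seen, overlapped between the groups: Otof, the calcium sensor of HC synapses, had -0.22 (adjusted p = 0.725), Myo6, a motor of stereocilia, 0.31 (adjusted p = 0.308) and Slc26a5, the motor protein prestin of outer HCs, 0.30 (adjusted p = 0.85). The summed HC level was 973 to 1700 CPM with GM and 1060 to 1490 CPM with PIO + GM. With the GC trend removed, Lhx3 had -1.36, Barhl1 -0.95, Pou4f3 -1.11 and Gfi1 -0.86, at an adjusted p between 0.193 and 0.272.

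**Figure D4:**
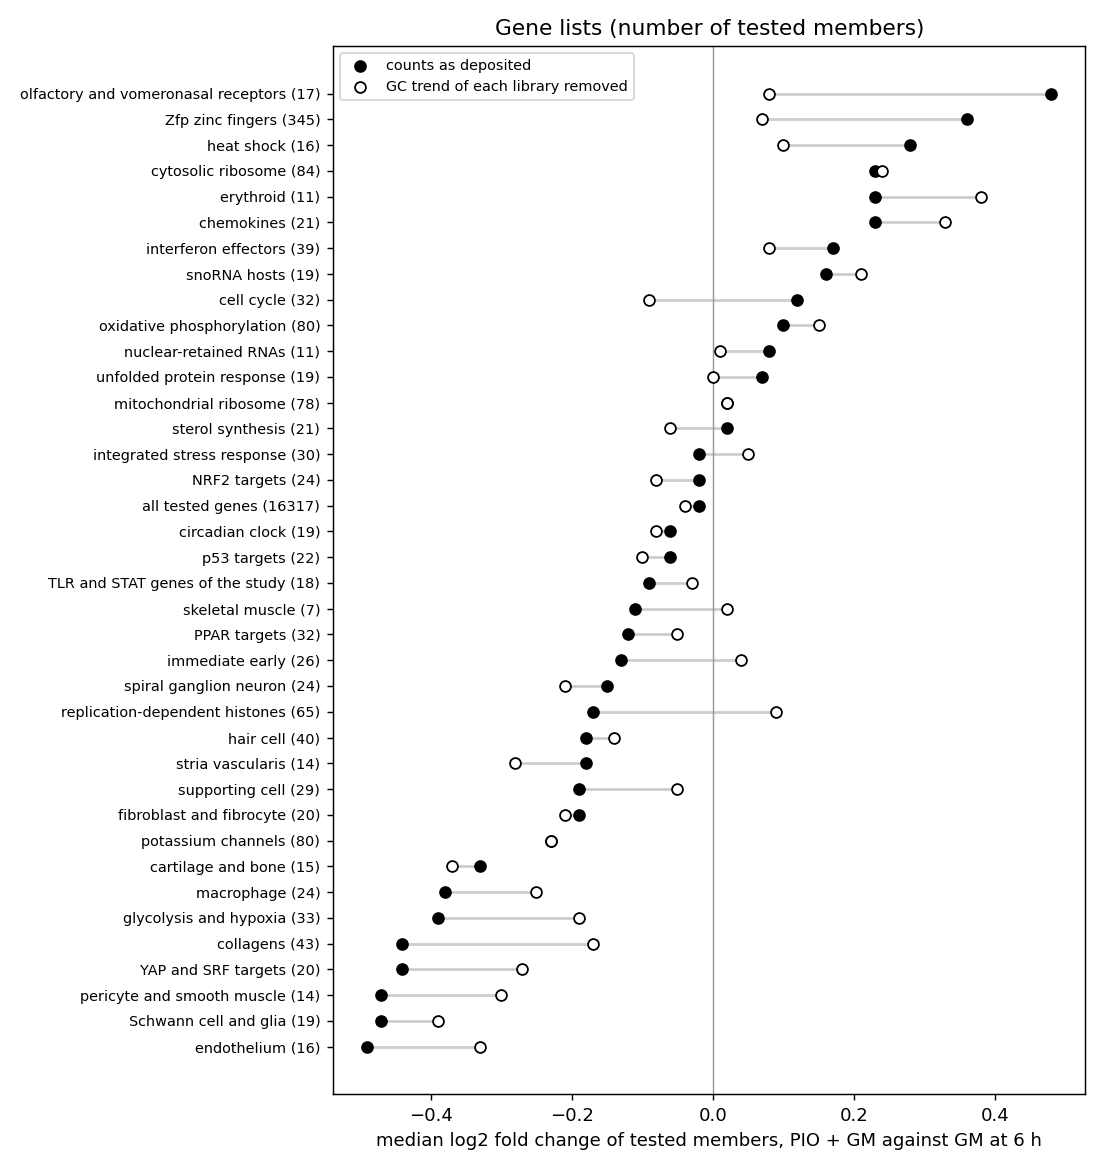
Median log2 fold change of the tested members of each gene list, PIO + GM against GM at 6 h, from the counts as deposited (filled) and with the GC trend of each library removed (open), with the number of tested members in parentheses. The zinc finger genes move from 0.36 to 0.07 and the olfactory and vomeronasal receptors from 0.48 to 0.08, and the YAP and SRF targets from -0.44 to -0.27.

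The remaining lists differed in how far their medians moved once the GC trend was removed. Among 345 tested zinc finger genes of the Zfp series, which have a median transcript GC content of 44.8%, 4 rose (Zfp287, Zfp781, Zfp871 and Zfp963) and 1 fell (Zfp467), beside 0.601% and 0.723% of all tested genes. Of the 345, 250 had a log2 fold change above 0, beside 7919 of all 16317 tested genes. With the GC trend removed these counts were 210 and 7044. Zfp287 rose by 0.56 (adjusted p = 0.0332) and Zfp963 by 0.58 (adjusted p = 0.0357). Zfp963 shares 937 of 2299 exonic bases with Gm20422 on the same strand. The median of the list was 0.36, and 0.07 with the GC trend removed, when 0 members were called. Some of these genes are similar in sequence, and some reads may be assigned to the wrong member, which was not tested. In the 43 tested collagens, with a median GC content of 55%, the median was -0.44 and 0 were called, and it was -0.17 with the GC trend removed, when 1 was called, Col20a1 (0.91, adjusted p = 0.0286), beside 0.141% of all tested genes called higher in that fit. In 33 genes of glycolysis and the hypoxia response, 6 had a log2 fold change above 0, and 3 with the GC trend removed. Of the 33, 0 were called, and the median was -0.39, or -0.19 with the GC trend removed. Their summed level was 8680, 4210 and 9910 CPM in GM and 6160, 5810 and 6500 CPM in PIO + GM, so that GM replicate 2 lay below every PIO + GM library and the groups overlapped. The 80 genes of oxidative phosphorylation, also with 0 called, had medians of 0.10 and 0.15. Nuclear-retained RNAs, 11 noncoding transcripts, summed to 36200 to 38300 CPM with GM and to 42400 to 49500 CPM with PIO + GM, without overlap and with 0 members called. Most of that sum was Malat1, whose log2 fold change was 0.38 (adjusted p = 0.158), and 0.03 with the GC trend removed, and the median of the 11 was 0.08. The 84 cytosolic ribosomal genes kept their median, at 0.23 and 0.24, with 0 called. In the heat shock list Hsph1, a chaperone of the HSP110 family, had 0.53 (adjusted p = 0.0625) and Hsp90aa1 0.75 (adjusted p = 0.086), or 0.35 and 0.42 with the GC trend removed. Of the 16 genes, 0 were called, and the median was 0.28 and 0.10. Mrpl54, of the mitochondrial ribosome, fell by 0.74 (adjusted p = 0.0388), and by 0.25 without the GC trend (adjusted p = 0.586), as 1 of 78, beside 0.723% of all tested genes. Of 37 lists, 28 had 0 called members in edgeR, among them NRF2 targets, p53 targets, the integrated stress response, the unfolded protein response and sterol synthesis, whose medians lay between -0.06 and 0.07.

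The log2 fold change of a gene was related to the GC content of its transcript. Over 15390 tested genes with a GC value (94.3%), the Spearman correlation was -0.63, and -0.49 without PIO + GM replicate 3. This is a description across genes of the same 6 libraries, which are not independent points. The correlation was 0.05 with gene length, 0.05 with mean level and -0.10 with the GC content of the promoter, from 250 bases before to 50 after the gene start, over 12624 genes. Called genes that were higher had a median GC content of 44.64%, called genes that were lower 55.34%, and all tested genes 50.32%. Of the higher called genes, 89 of 95 were below the median of all genes, and of the lower ones, 104 of 116 were above it. In bin 1, from 32.8% to 42% GC, 20 genes were called higher and 0 lower, with a median log2 fold change of 0.38. In bin 10, from 58.4% to 72.8% GC, 0 were called higher and 28 lower, with a median of -0.52. After the trend was removed, 1 gene was called higher and 7 lower in bin 10, and 0 and 2 in bin 1.

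**Figure D5:**
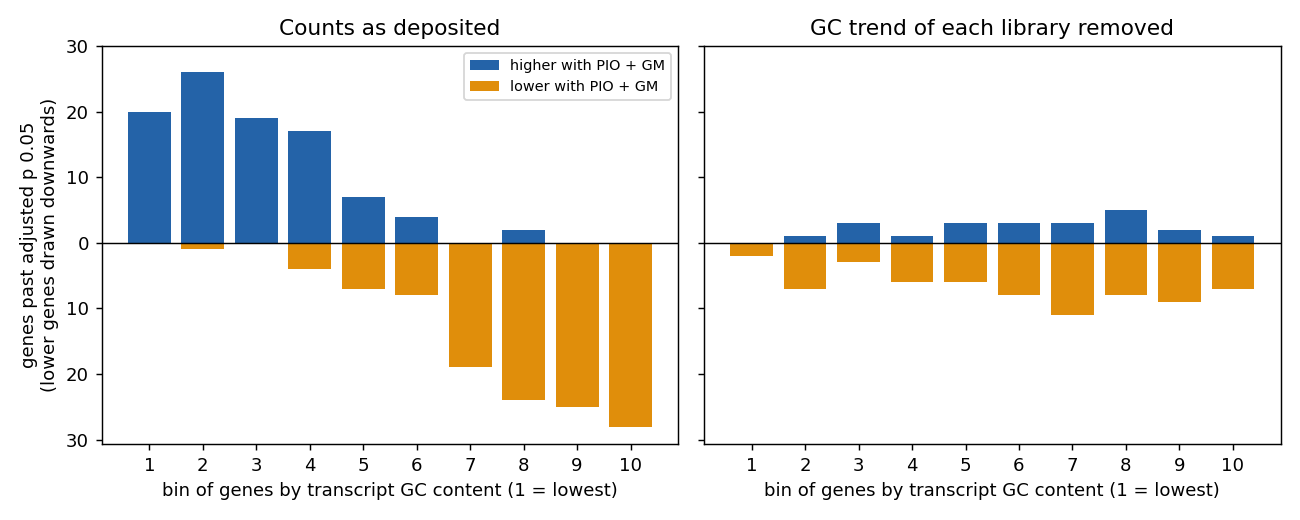
Number of genes past an adjusted p of 0.05 between PIO + GM and GM at 6 h in 10 equal bins of transcript GC content, higher with PIO + GM drawn upwards and lower drawn downwards. In the counts as deposited (left) bin 1 holds 20 higher and 0 lower genes and bin 10 holds 0 higher and 28 lower genes, with both kinds in the middle bins, and with the GC trend of each library removed (right) lower genes are spread over all bins.

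Coding sequence is shown for called genes at both ends of the range of transcript GC content. The stretches shown are the middle 60 bases of the longest coding exon of the called genes with the lowest and highest transcript GC content and a mean of at least 200 counts, with G and C in capitals, from the GENCODE transcripts of build GRCm38. The Klhl28 stretch lies in exon 2 on the minus strand, at chr12:64957258-64957317, the Zbtb41 stretch in exon 2 on the plus strand, at chr1:139423679-139423738, the Cldn3 stretch in its single exon on the plus strand, at chr5:134986743-134986802, and the Ppp1r14b stretch in exon 1 on the plus strand, at chr19:6975347-6975406.
Klhl28: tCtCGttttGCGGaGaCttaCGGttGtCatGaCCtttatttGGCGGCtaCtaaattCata
Zbtb41: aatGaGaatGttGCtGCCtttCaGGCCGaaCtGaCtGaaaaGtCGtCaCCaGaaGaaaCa
Cldn3: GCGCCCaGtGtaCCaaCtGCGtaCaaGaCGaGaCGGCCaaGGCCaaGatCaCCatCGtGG
Ppp1r14b: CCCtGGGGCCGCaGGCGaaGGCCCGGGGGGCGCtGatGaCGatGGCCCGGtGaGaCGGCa

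Klhl28, which encodes a Kelch-like protein, has a transcript GC content of 36.12%, and 25 of the 60 bases shown are G or C. It was at 5.02, 4.73 and 4.89 log2 CPM with GM and at 5.26, 5.81 and 6.03 with PIO + GM, and rose by 0.85 ± 0.18 (adjusted p = 0.0332). Zbtb41, a zinc finger protein with 36.92% GC and 27 of 60 bases G or C, rose by 0.72 ± 0.17 (adjusted p = 0.0427). Cldn3, a claudin of epithelial tight junctions with 62.75% GC and 36 of 60 bases G or C, was at 4.89, 4.50 and 4.99 with GM and at 3.97, 3.88 and 3.65 with PIO + GM, and fell by 0.97 (SE 0.23, adjusted p = 0.0433). Ppp1r14b, an inhibitor of protein phosphatase 1 with 65.77% GC and 46 of 60 bases G or C, fell by 0.95 (SE 0.21, adjusted p = 0.0349). In all 4 genes the log2 fold change shrank once the GC trend of each library was removed, to 0.29, 0.21, -0.42 and -0.35, and the call was lost (adjusted p = 0.166, 0.227, 0.282 and 0.143). Since they were chosen by GC content, such a shift is built into the choice, and the part of base composition in their calls was not tested.

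Pioglitazone without gentamicin (PIO against CTRL at 6 h, 3 libraries each) shares no library with this comparison. Of the 216 genes, 215 had the same sign there, beside 75.6% of all tested genes, and 34 were called among the 55 genes (0.337%) called there, 24 (0.147%) higher and 31 (0.19%) lower, with 2479 (15.2%) at an unadjusted p under 0.05. PIO replicate 2 had a GC trend of its own (-0.64), like PIO + GM replicates 2 and 3. Without it, 209 of the 216 genes had the same sign, beside 57.8% of all genes, and 13 were called among the 19 genes called there. The correlation of the log2 fold changes over 16317 genes fell from 0.63 to 0.26 without PIO replicate 2. With all libraries kept and the GC trend of each removed, the correlation was 0.55. Cpt1a rose by 0.88 (adjusted p = 0.00525), Plau fell by 2.12 (adjusted p = 0.00665) and Axl fell by 1.35 (adjusted p = 0.00746) with PIO alone. Sumo3 fell by 0.40 (adjusted p = 0.0461) and Gap43 by 1.26 (adjusted p = 0.0244). Klf11 rose by 0.88 (adjusted p = 0.0461) and Gbp6 by 0.91 (adjusted p = 0.0461). The difference between the effect of pioglitazone with and without gentamicin was tested gene by gene, and 0 genes were called by edgeR and by DESeq2, with 293 (1.8%) at an unadjusted p under 0.05. For Cpt1a the difference was -0.12 ± 0.17 and for Axl 0.03 ± 0.29 on the log2 scale. For gentamicin alone, against CTRL at 6 h, edgeR called 0 genes at an adjusted p of 0.05, with 243 (1.49%) at an unadjusted p under 0.05. The 39 interferon effectors had a median log2 fold change of 1.19 there, beside 0 over all tested genes. The study reports strong induction of its interferon pathways by gentamicin at this time.

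At 24 h the same comparison, in other libraries, called 18 genes (0.11%), 4 (0.0245%) higher and 14 (0.0858%) lower, with 1219 (7.47%) at an unadjusted p under 0.05. Of the 216 genes of 6 h, 210 had the same sign at 24 h, beside 68.2% of all tested genes, and 5 were called. Their median log2 fold change was 0.30 for the higher and -0.41 for the lower genes, beside 0.65 and -0.94 at 6 h. Cpt1a rose by 1.06 at 24 h (adjusted p = 0.00041), Chd3 fell by 0.84 (adjusted p = 0.0397) and S100a4, a calcium-binding protein of motile cells, fell by 1.72 (adjusted p = 0.0345) after a fall of 1.63 at 6 h. S100a4 shares 302 of its 584 exonic bases with Gm42674 on the same strand. Angptl4, not called at 6 h, rose by 2.67 (adjusted p = 0.0137). Slc27a1 had -0.22 at 24 h (adjusted p = 0.921) and Elovl2 0.28 (adjusted p = 0.942). Tests of the difference between 6 h and 24 h called 0 genes by edgeR's quasi-likelihood test, with 663 (4.06%) at an unadjusted p under 0.05, and 1 gene by DESeq2. This gene was Ecm2, an extracellular matrix protein named for that result, which was at 2.38 ± 0.39 log2 CPM (SD, n = 3) with GM and 3.07 ± 0.44 with PIO + GM at 6 h. At 24 h it was at 3.93 ± 0.20 with GM and 2.20 ± 0.41 with PIO + GM. The difference of the effects was 2.45 ± 0.45 (adjusted p = 0.462 by the quasi-likelihood test).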

How the data were processed

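RNA of mouse organ of Corti explants was sequenced by the authors as stranded total RNA, mapped with RNA-STAR and counted with QuasR as reads starting in the exons of a gene. The deposited counts were used as given, without further scaling by the authors, and labels name the build mm10. Columns were matched to groups by their sample numbers. Of 24454 Entrez identifiers, 24381 matched a symbol and 21328 a transcript GC value (GENCODE, GRCm38). In edgeR 4.0.16 (R 4.3.3), genes were filtered with filterByExpr, scaled by TMM and fitted with a mean for each of 8 groups over 24 libraries (common biological coefficient of variation 0.225). The quasi-likelihood test was used with Benjamini-Hochberg adjustment over all tested genes at 0.05. SE was derived from the F statistic, and log2 CPM used a prior count of 2. The GC trend of each library was removed by a lowess curve (span 0.3) as an offset. DESeq2 1.42.0 was an alternative. Each treatment was done in triplicate, but nothing says that replicates came from separate animals, so p-values measure the spread between libraries, which may in part be technical. Replicates differed by more than sampling noise (chi-square per degree of freedom 10.9 to 45.5), and exact permutation of 3 against 3 libraries cannot go below p = 0.1. Members and gene lists were chosen with earlier results of these data known. Genes were named by the largest change without overlap, the lowest p with the GC trend removed, up to 2 per list, the study's own immune genes, known PPAR targets and the extremes of GC content. Acadl, Tpm2, Flna, Ccn1, Ccn2, Atoh1, Pou4f3, Gfi1, Lhx3, Myo7a, Otof, Myo6, Slc26a5, Pdgfrb, Itgam, Lyve1, Hsp90aa1, Malat1, Col20a1 and further Zfp genes were named after their values were seen. Single-gene values of some list members are not reported here.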

Additional observations from a re-analysis of the deposited data

How the results depend on the processing

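The 216 called genes (98 higher, 118 lower) became 75 (27 and 48) with no filter on low counts, 350 (192 higher) with at least 10 counts in every library, 670 (289 and 381) by edgeR's likelihood ratio test, 1216 (686 and 530) by DESeq2, 91 (23 and 68) with the GC trend removed, 25 (5 and 20) with the GC trend removed and without PIO + GM replicate 3, and 0 (0 and 0) with the 12 or the 6 libraries alone. They were 174 without TMM factors, 226 with DESeq2 size factors, 157 with all libraries thinned to the shallowest and 156 (62 higher) with a Y-linked covariate. The cause of these differences was not tested. Leaving out 1 library gave 4 to 4053 genes, 0 to 1886 higher and 3 to 2167 lower. The replicate block gave 1990 genes (942 higher, 1048 lower), and 632 (180 and 452) with the GC trend removed. The numbers were not taken to pair the libraries, since this would need a correlation over 0.1 in every pair: deviations of same-numbered GM and PIO + GM libraries correlated at -0.31, 0.15 and -0.03, and not every library correlated best with its own number. Over all groups of 6 h, same-numbered pairs had a mean of 0.11 (-0.31 to 0.68) and other pairs -0.05, and the block lowered the common biological coefficient of variation from 0.225 to 0.177.

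The difference between 6 h and 24 h called 1 gene with the replicate block, by DESeq2 and by the likelihood ratio test (Ecm2), and 2 with the GC trend removed without PIO + GM replicate 3 (Ecm2 and Plac9b). That difference, and the one with and without gentamicin, called 0 genes in each fit without 1 library. The correlation with GC was -0.01, -0.01 with the block and 0.00 without PIO + GM replicate 3 once the trend was removed, and -0.66 to -0.49 without 1 library. Signs turned in Irf7 (0.18 with the GC trend removed and without PIO + GM replicate 3, 0.02 and 0.08 without PIO + GM replicate 2 or 3, down to -1.49 without replicate 1), Tlr4 (0.03 without GM replicate 3, -0.38 without PIO + GM replicate 3, down to -0.68 with the GC trend removed as well), Isg15 (-0.19 with the block, -0.09 with block and GC trend removed, -0.14 without GM replicate 1, -0.71 to 0.34 without 1 PIO + GM library) and Cd36 (0.07 without PIO + GM replicate 2, 0.22 without GM replicate 3, -0.45 without PIO + GM replicate 3, down to -0.70 with the GC trend removed as well). At the depth of PIO + GM replicate 3, genes near 0.416 CPM cannot be placed. Leaving out each library of the other groups was added after seeing the data.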
